A study of Mus musculus with 23 samples.

Results

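The clustered protocadherins are cell-surface cadherins whose genes stand in tandem in 3 neighbouring clusters, alpha, beta and gamma, on mouse chromosome 18. Members were taken as the protein-coding genes whose symbols follow the pattern of these clusters, which gave 57 genes of 21784 protein-coding genes in the data: 14 alpha, 22 beta and 21 gamma members. The symbol Pcdha11 belongs to 2 of these genes, so they carry 56 symbols. Pcdhgb8, annotated as a polymorphic pseudogene, is not among them.

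RNA-seq was made from sorted pancreatic stellate cells (PSCs, the fibroblast-type cells of the pancreas) and from sorted pancreatic tumour organoids, mouse cells that had shared a Matrigel culture over 3.5 days, with reduced or control medium as the labels call it. Of 23 libraries, 12 came from PSCs and 11 from organoids. The line PSC4 gave a control labelled Rosa and wild type, and the knockout clones A3 and B4 with the Egfr gene as the target; each was grown once with T69A, T6-LOH and T12-LOH organoids, so each has 3 libraries. The line PSC5 gave a Rosa control and the Egfr knockout clones C5 and D4, each grown once with T6-LOH organoids, so each has 1 library and no spread. Organoids of T6-LOH gave 6 libraries (with each of the PSC4 and PSC5 lines), T12-LOH 3 (with each PSC4 line) and T69A 2 (with PSC4 Rosa and B4). The library of T69A organoids grown with A3 is not analysed here. The sources used here do not say whether a Rosa line is 1 clone, how Egfr was disrupted, or what the organoid lines carry beyond their names. Libraries are named by the numbers in their labels. Libraries of the same clone repeat the clone, not the knockout. Apart from the change of partner nothing marks them as independent cultures, so p-values reflect only how far they spread, which may be technical.

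As background, each member of a cluster is switched on at its own promoter. In neurons a cell expresses a few of the alternate members, chosen at random by contacts between an enhancer and promoters that involve CTCF, cohesin and loss of promoter DNA methylation, while the C-type members at the end of the alpha and gamma clusters (Pcdhac1, Pcdhac2, Pcdhgc3, Pcdhgc4, Pcdhgc5) are regulated apart from that choice. The proteins bind like proteins on other cells, and the set that a neuron shows serves as its surface identity. Because the choice is kept through cell divisions, cells descended from 1 founder can share a set.

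Each library summed to between 21823084 and 34828131 estimated counts. Members made up 325.6 to 633 CPM (counts scaled to a common library size) of a PSC library and 55.7 to 91.5 of an organoid library. Levels are CPM with TMM library sizes, and are compared between genes only as TPM (transcript abundance), which takes the transcript length into account. At 0 counts the limit that 3 counts allow lay between 0.0848 and 0.138 CPM in a library, covering counting error only. Marker genes followed the labelled cell types: 12 fibroblast markers summed to 6288 to 17572 CPM in PSCs against 1.62 to 25.2 CPM in organoids, and 12 epithelial markers to 21.9 to 146.1 CPM in PSCs against 14181 to 19661 CPM in organoids. Egfr itself measured 277.2 to 318.5 CPM in PSC4 Rosa, 57.8 to 102.2 in A3 and 113.7 to 211.8 in B4, and 414.1 CPM in PSC5 Rosa against 109.9 in C5 and 342 in D4. Egfr mRNA was present in every knockout line, at a level below that of its own control.

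How far a count can be tied to 1 member differs between the clusters. All 22 beta genes are annotated with 1 exon. An alpha transcript instead joins its own first exon to 3 exons common to the cluster, of 59, 89 and 2712 bases in 14 of 14 alpha members. Gamma transcripts end likewise in shared exons: 1 of 59 bases in 20 of 21 members, 1 of 89 bases in 21 and 1 of 1971 bases in 16. The share of 31-base words of the longest transcript that occur in no other gene's transcripts was 77.5 to 100% in beta members, 32.2 (Pcdhga4) to 78.7% in gamma members and 2.18 (Pcdha4) to 51.6% in alpha members. Reads from shared exons are divided among members by the authors' quantification, so a gamma value is an estimate. Within 0.01 of a read, 60.7% of 366 beta values above 0.5 reads were whole numbers, against 4.94% of 628 gamma values. The sum over a cluster does not depend on the division among members, although reads of shared exons can also go to Pcdhgb8, which was given 0 to 1.17 CPM in a library.

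A member was called on in a line where it had at least 1 CPM in every library of the line, and near 0 where it was under 0.1 CPM in every library. By that measure 31 of 57 members were on in at least 1 of the 9 lines: 1 of 14 alpha, 11 of 22 beta and 19 of 21 gamma members. In PSCs, 17 members were on in all 6 lines, 8 of them beta and 9 gamma, 13 were on in some lines and 27 in none. In organoids, 42 members were on in no line, 11 in exactly 1 line, 2 in exactly 2 and 2 in all 3. Pcdhgc3 was on in all 9 lines and was the only member to be so. The rule is harder to pass for a line with more libraries. Lines had from 1 to 6 libraries, so the numbers of members on are not counted on equal terms between lines. Of the 57 members, 7 had 0 counts in all libraries. In bulk RNA, a level can come from every cell or from a few, and fewer expressing cells and less RNA per cell cannot be told apart.

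**Figure D1:**
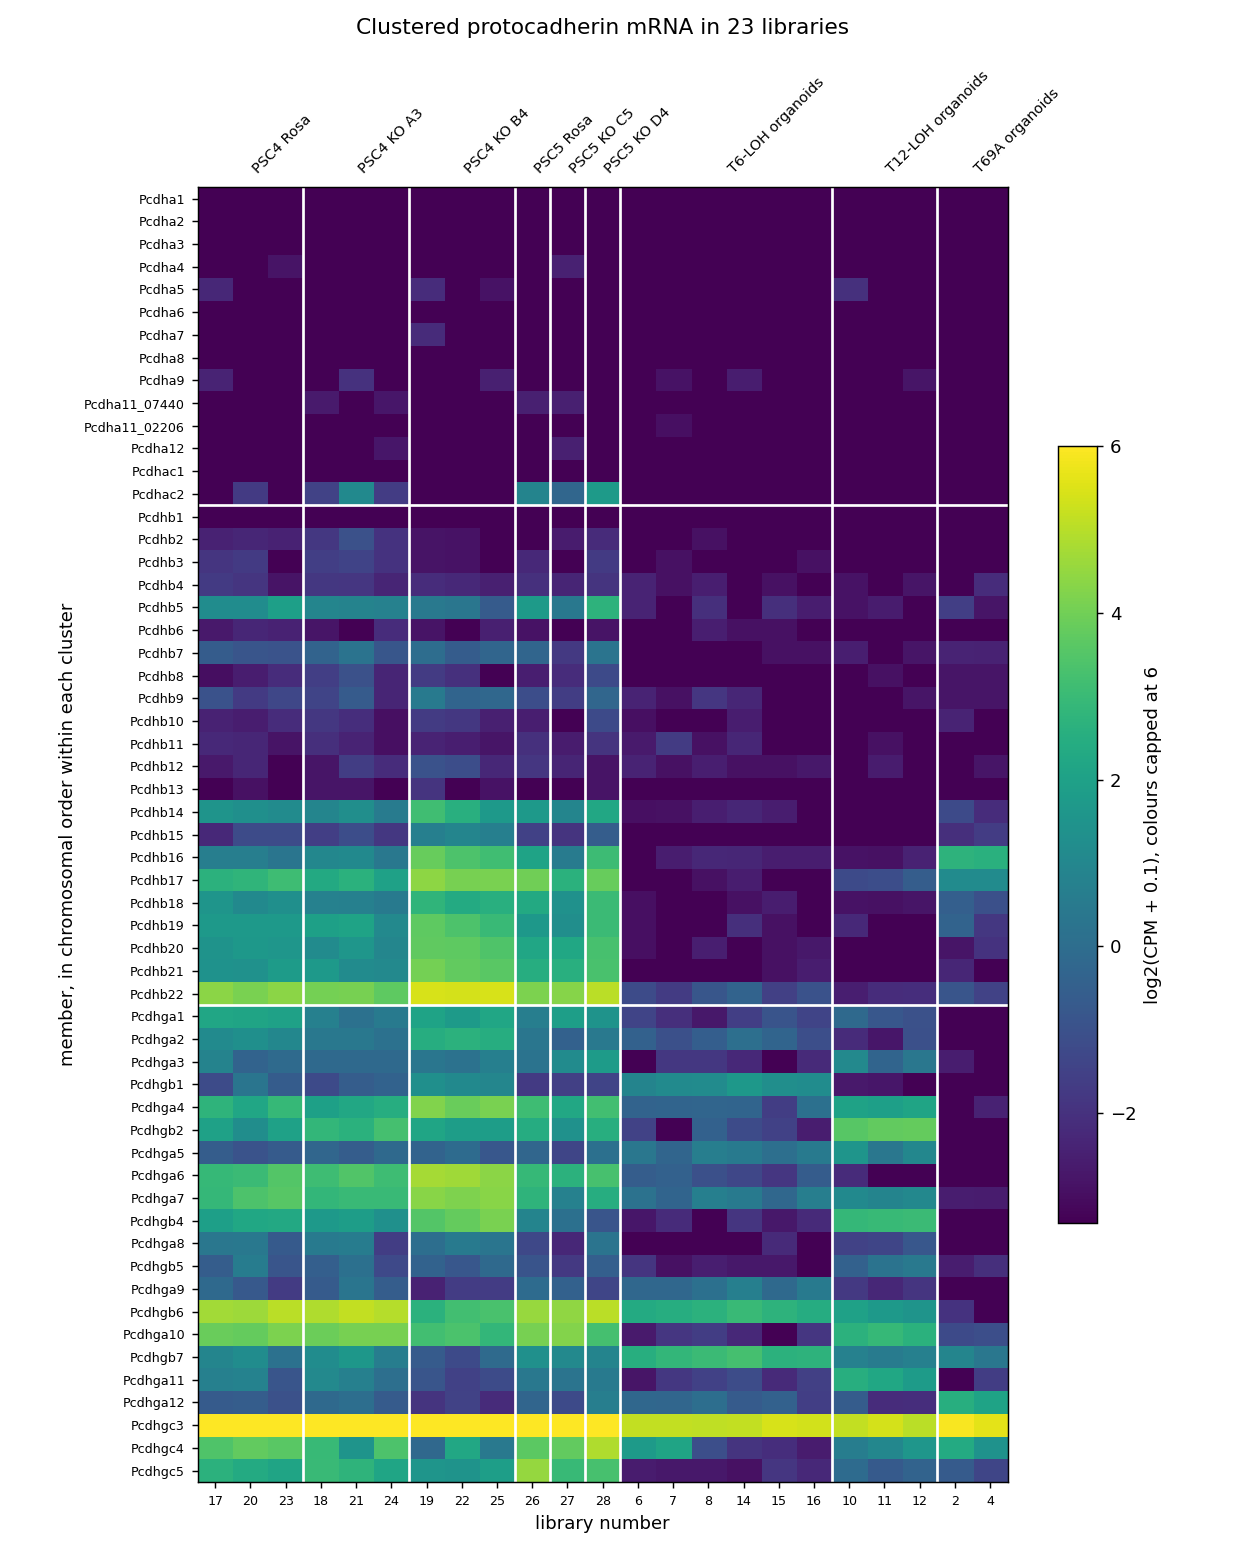
Level of each of the 57 members (rows, in chromosomal order; both Pcdha11 genes are marked by the end of their identifiers) in each of the 23 libraries (columns, by line), as log2(CPM + 0.1) with the colour scale capped at 6. Alpha members are dark, beta members from Pcdhb14 to Pcdhb22 are bright in PSCs, and the bright gamma members differ between organoid lines.

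The sets of members that were on tell the PSC4 lines apart only in part. PSC4 Rosa and clone A3 each had 22 members on, and these were the same 22: Pcdhb5, Pcdhb14, Pcdhb16 to Pcdhb22, Pcdhga1, Pcdhga2, Pcdhga4, Pcdhgb2, Pcdhga6, Pcdhga7, Pcdhgb4, Pcdhgb6, Pcdhga10, Pcdhgb7, Pcdhgc3, Pcdhgc4 and Pcdhgc5. Clone B4 also had 22 on, of which 19 were shared with Rosa. By the rule of every library, Pcdhb5, Pcdhgb7 and Pcdhgc4 were on in Rosa only, and Pcdhb15, Pcdhga3 and Pcdhgb1 in B4 only. Single libraries still passed 1 CPM in the other line. In B4 these were libraries 19 and 22 for Pcdhb5 (1.25 and 1.16 CPM) and 22 and 25 for Pcdhgc4 (4.75 and 1.25 CPM). In Rosa they were library 17 for Pcdhga3 (1.7 CPM) and library 20 for Pcdhgb1 (1.12 CPM). PSC5 Rosa had 25 on, the 22 of PSC4 Rosa with Pcdhac2, Pcdhga3 and Pcdhga11. With 1 library, a PSC5 line passes the rule of every library more easily than a PSC4 line with 3. Pcdhga3 had 1.09 CPM in PSC5 Rosa, within its range of 0.673 to 1.7 in PSC4 Rosa. Pcdhga11 had 1.21 CPM, within its range of 0.447 to 1.66 in PSC4 Rosa. All 22 that were on in clone C5 were on in PSC5 Rosa, which makes 88% of the PSC5 Rosa set. In C5, Pcdhac2 (0.736 CPM), Pcdhga2 (0.641 CPM) and Pcdhgb4 (0.997 CPM) lay under the threshold. Clone D4 had 27 on and shared 24 with PSC5 Rosa, which is 96% of the PSC5 Rosa set and 88.9% of its own; D4 lacked Pcdhgb4 and added Pcdhb7, Pcdhga8 and Pcdhga12. These counts lean on the threshold, and Rosa and A3 had identical sets at 1 CPM only. At 2 CPM Rosa had 19 on and A3 13, and at 1 TPM Rosa had 15 and A3 11; each time the A3 members were all among those of Rosa. At 0.5 CPM Rosa had 24 and A3 27, of which 23 were shared. With the longest transcript alone A3 had 19, all among the 22 of Rosa. B4 had 19 on at 2 CPM, 18 at 1 TPM and 27 at 0.5 CPM. Of these, 17, 12 and 23 were shared with Rosa. At 2 CPM and at 1 TPM B4 thus shared more members with Rosa than A3 did. With the longest transcript alone B4 had 21, of which 18 were shared with Rosa. At 1 TPM PSC5 Rosa had 16 on and C5 13. Over all genes at 1 CPM, A3 shared 97.3% of the genes on in PSC4 Rosa and B4 96.3%. Likewise C5 shared 96.8% of the genes on in PSC5 Rosa and D4 97.2%, which makes 97.9% and 97.3% of their own.

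In the beta cluster the members that were on lay at one end. Of the 13 genes from Pcdhb1 to Pcdhb13, only Pcdhb5 was on in any PSC4 line, and Pcdhb7 joined it in D4. Of the 9 genes from Pcdhb14 to Pcdhb22, 8 were on in each PSC line but B4, which had all 9. The first 13 summed to between 2.1 and 9.73 CPM in PSC libraries and the last 9 to between 26.6 and 137.9 CPM. Pcdhb22, the last gene of the cluster, held the largest share of beta TPM in every PSC line, from 27.3% in PSC5 Rosa to 43.1% in C5, followed in each line by Pcdhb17 (12.8 to 24.7%).

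Among beta members, B4 stood far above the other PSC4 lines. Pcdhb22 had 20.6, 17.5 and 20.8 CPM in Rosa libraries 17, 20 and 23, 16.5, 16.9 and 12.8 in A3 libraries 18, 21 and 24, and 42.8, 42.2 and 43.1 in B4 libraries 19, 22 and 25. The B4 values lay above all others with no overlap, while A3 overlapped none of Rosa but lay close below it. Pcdhb17 had 6.32, 6.78 and 8.55 CPM in Rosa, 4.98, 6.13 and 3.93 in A3 and 21.3, 16.7 and 17.3 in B4. Pcdhb16 had 1.47, 1.48 and 1.13 CPM in Rosa, 1.88, 2.05 and 1.23 in A3 and 14.3, 10.4 and 8.76 in B4. For both genes every B4 library exceeded every other PSC4 library, and Pcdhb16, scarcely past the threshold in Rosa, had the largest fitted change of the tested members in B4.

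Pcdhb20 and Pcdhb21 followed the same order of lines. Pcdhb20 had 2.65, 3.07 and 2.91 CPM in Rosa, 2.15, 2.9 and 1.82 in A3 and 13.3, 12.8 and 10.7 in B4. Pcdhb21 had 2.58, 2.51 and 3.37 CPM in Rosa, 3.1, 2.17 and 1.98 in A3 and 16.6, 13.6 and 12.3 in B4. In both, Rosa and A3 overlapped and B4 did not touch either. Pcdhb19 had 3.18, 3.14 and 3.15 CPM in Rosa, 3.86, 4.14 and 2.01 in A3 and 12.7, 10.3 and 7.98 in B4. Pcdhb18 had 2.8, 2.03 and 2.43 CPM in Rosa, 1.6, 1.56 and 1.29 in A3 and 6.74, 5.03 and 5.73 in B4. Pcdhb14 had 2.73, 2.4 and 2.18 CPM in Rosa, 1.78, 2.31 and 1.35 in A3 and 8.63, 5.74 and 3.14 in B4. B4 was highest in each of the 3 genes, with the narrowest gap in Pcdhb14, where its lowest library came near the highest of Rosa. Pcdhb15, off in Rosa (0.113, 0.337 and 0.335 CPM) and in A3 (0.231, 0.356 and 0.188), had 1.54, 1.78 and 1.53 CPM in B4. Pcdhb5 went the other way, with 2.23, 2.22 and 3.77 CPM in Rosa, 1.78, 1.69 and 1.62 in A3 and 1.25, 1.16 and 0.535 in B4, so that the 3 lines did not overlap.

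The PSC5 lines, with 1 library each, kept the same beta members on at different levels. Values are given in the order PSC5 Rosa, C5 and D4. Pcdhb22 had 17.9, 19.9 and 32.4 CPM. Pcdhb17 had 15.8, 6.12 and 14 CPM, and Pcdhb16 4.18, 1.36 and 8.25 CPM. D4 was highest in the first and the last of these genes and C5 lowest in Pcdhb17 and Pcdhb16. Pcdhb20 had 4.46, 4.58 and 9.6 CPM, and Pcdhb21 5.52, 5.76 and 9.79 CPM. Pcdhb18 had 4.98, 2.55 and 8.14 CPM, Pcdhb19 3.04, 2.37 and 8.05 CPM and Pcdhb14 3.14, 1.81 and 4.77 CPM. D4 was again the highest library in all 5, and C5 lay below PSC5 Rosa in the last 3 of them. Among the early beta genes, Pcdhb5 had 3.24, 1.23 and 6.46 CPM and Pcdhb7 0.721, 0.194 and 1.11 CPM. With single libraries there is no spread to set these differences against.

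**Figure D2:**
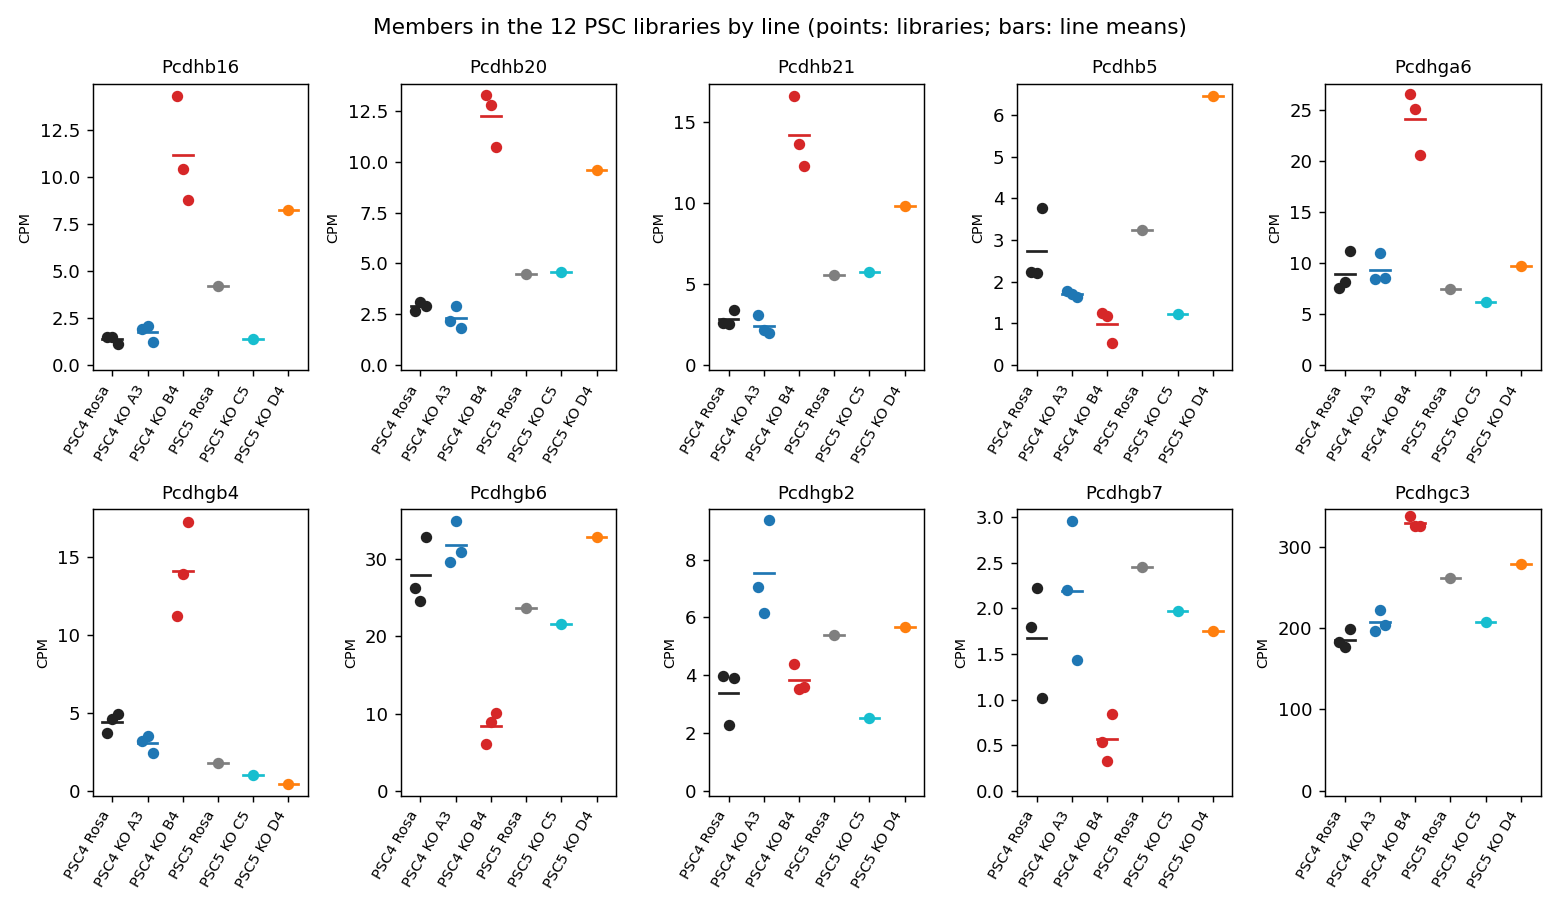
CPM of 10 members in the 12 PSC libraries (vertical axis, linear) by line (horizontal axis), where points are libraries and bars are line means; PSC5 lines have 1 point. The 3 libraries of B4 lie above those of PSC4 Rosa and A3 for Pcdhb16, Pcdhb20, Pcdhb21, Pcdhga6, Pcdhgb4 and Pcdhgc3, and below them for Pcdhb5, Pcdhgb6 and Pcdhgb7.

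The gamma cluster holds 2 interleaved subfamilies of alternate members, A and B, which take turns along the chromosome. Of the TPM of all A and B members, Pcdhgb6 held the largest share in PSC4 Rosa (30.5% ± 1.98, SD, n = 3) and in A3 (34.4% ± 0.963, SD, n = 3), followed by Pcdhga10 (16.5% ± 0.897 and 17.2% ± 0.884). In B4 the order was another: Pcdhga6 held 21.2% ± 2.9, Pcdhga7 17.5% ± 0.744 and Pcdhga4 14.6% ± 1.75 (SD, n = 3 libraries each). Pcdhgb6 led in PSC5 Rosa (29.2%), C5 (31.9%) and D4 (37.2%). B4 was therefore the only one of the 6 PSC lines in which Pcdhgb6 was not the leading alternate gamma member.

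**Figure D3:**
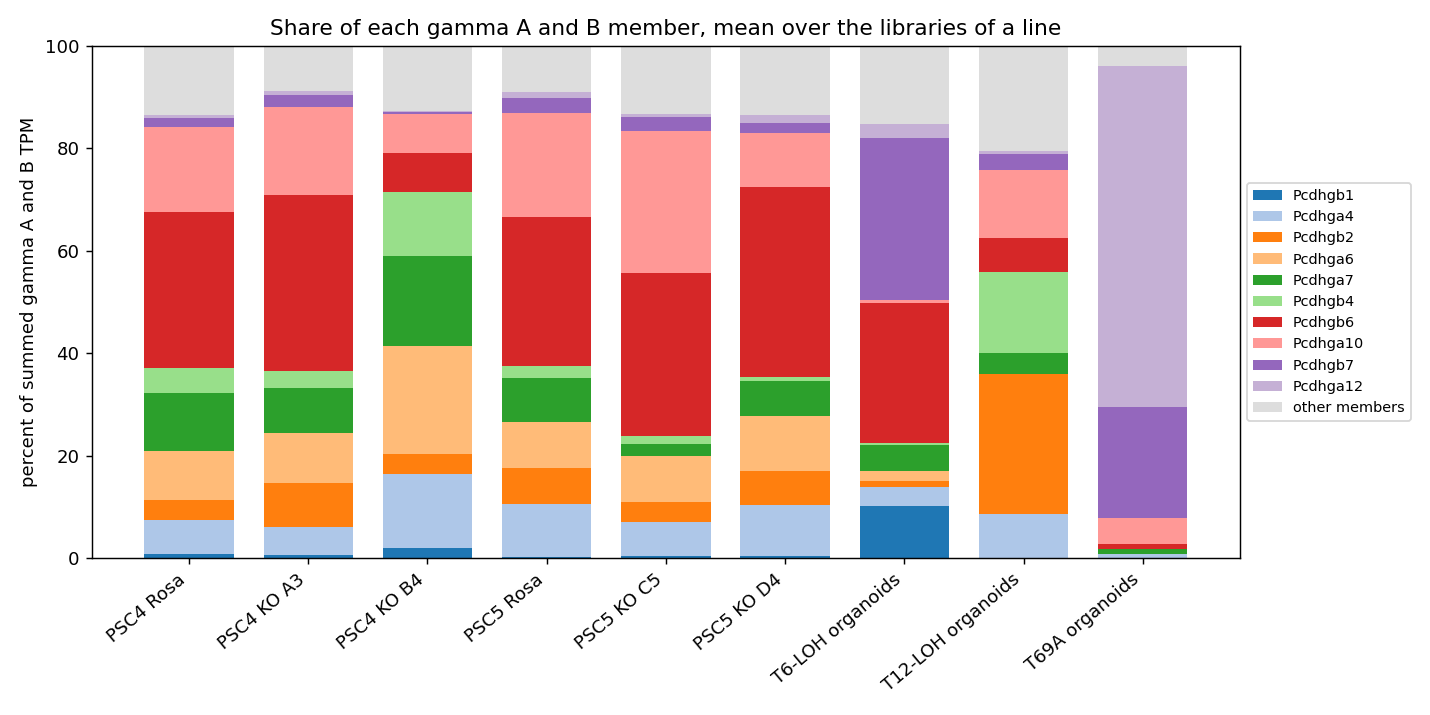
Share of each gamma A or B member in the summed TPM of these members (vertical axis, percent), as the mean over the libraries of each line (bars); the 10 coloured members are named in the legend and the rest is grey. The red band, Pcdhgb6, is the widest in 5 of the 6 PSC lines, and each organoid line has its own leading member.

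The values by library show the shift within B4. Pcdhgb6 had 26.3, 24.6 and 32.8 CPM in Rosa, 29.6, 35 and 31 in A3 and 6.07, 8.94 and 10 in B4. Pcdhga10 had 14.7, 13.7 and 17.9 CPM in Rosa, 15.1, 17.1 and 16.8 in A3 and 8.92, 10.1 and 7.12 in B4. Both were lower in every B4 library than in any other PSC4 library, and Rosa and A3 overlapped. Pcdhga6 had 7.57, 8.17 and 11.2 CPM in Rosa, 8.48, 10.9 and 8.5 in A3 and 26.6, 25.2 and 20.7 in B4. Pcdhga7 had 7.37, 10.4 and 11.8 CPM in Rosa, 7.14, 7.94 and 7.85 in A3 and 20.4, 18.3 and 20.4 in B4. Pcdhga4 had 6.5, 4.45 and 7.43 CPM in Rosa, 3.87, 4.72 and 5.55 in A3 and 18.6, 14.4 and 17.1 in B4. In all 3 genes B4 was above and apart from the other lines. Pcdhgb4 had 3.71, 4.6 and 4.89 CPM in Rosa, 3.16, 3.53 and 2.43 in A3 and 11.2, 13.9 and 17.2 in B4. Pcdhgb1, a B member near the start of the cluster, had 0.337, 1.12 and 0.56 CPM in Rosa, 0.328, 0.575 and 0.665 in A3 and 2.42, 2.07 and 1.83 in B4. B4 was the only PSC line in which Pcdhgb1 was on.

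Towards the far end of the alternate gamma members, levels were lower in B4. Pcdhgb7 had 1.8, 2.22 and 1.02 CPM in Rosa, 2.2, 2.96 and 1.43 in A3 and 0.538, 0.325 and 0.84 in B4. Pcdhga11 had 1.55, 1.66 and 0.447 CPM in Rosa, 1.98, 1.56 and 0.969 in A3 and 0.445, 0.251 and 0.335 in B4. Pcdhga12 had 0.532, 0.58 and 0.391 CPM in Rosa, 0.806, 0.939 and 0.538 in A3 and 0.167, 0.255 and 0.12 in B4. The B4 values lay below all others in the 3 genes, with next to no gap in Pcdhga11, where Rosa library 23 came nearest. By chromosomal order, the alternate members called higher in B4 than in Rosa ran from Pcdhga2 to Pcdhgb4, and those called lower from Pcdhgb6 to Pcdhga12.

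In A3 against Rosa, the edgeR test given below called 3 of 33 tested members (9.09%, against 7.41% of all genes). Each of the 3 lost its call under at least 1 alternative run. Pcdhga1 had 4.51, 4.26 and 3.94 CPM in Rosa and 1.58, 1.02 and 1.33 in A3, with 4.19, 3.25 and 4.5 in B4. Pcdhga2 had 2.1, 2.37 and 1.87 CPM in Rosa, 1.25, 1.24 and 1 in A3 and 5.45, 6.22 and 5.54 in B4. Pcdhgb2 had 3.96, 2.26 and 3.91 CPM in Rosa, 7.05, 6.14 and 9.38 in A3 and 4.37, 3.53 and 3.57 in B4. A3 overlapped neither of the other lines in any of the 3 genes, being lowest in the first pair and highest in Pcdhgb2. Pcdhga3 lay about the threshold, at 1.7, 0.673 and 0.843 CPM in Rosa, 0.821, 0.818 and 0.803 in A3 and 1.15, 1.06 and 1.54 in B4; Rosa overlapped both clones and A3 lay below B4. Pcdhga8, at 0.528 to 1.24 CPM in Rosa, 0.22 to 1.41 in A3 and 0.928 to 1.34 in B4, overlapped throughout. Pcdhga5 measured 0.428 to 0.855 CPM over the 9 PSC4 libraries, so it was on in none.

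In PSC5 Rosa, C5 and D4, in that order, Pcdhgb6 had 23.7, 21.6 and 32.9 CPM. Pcdhga10 had 16.9, 19.2 and 9.49 CPM, lowest in D4. Pcdhga4 had 8.58, 4.71 and 9.01 CPM, Pcdhga6 7.42, 6.2 and 9.7 CPM and Pcdhga7 6.52, 1.61 and 5.56 CPM. C5 was the lowest library in these 3 genes, by most in Pcdhga7. Pcdhgb4 had 1.75, 0.997 and 0.444 CPM, so neither knockout clone of PSC5 had it on, while in PSC4 it was highest in the knockout clone B4. Pcdhga1 had 1.5, 3.66 and 2.69 CPM and Pcdhgb2 5.38, 2.5 and 5.65 CPM. In both genes C5 differed from PSC5 Rosa in the direction opposite to that of A3 from PSC4 Rosa, in 1 library of each PSC5 line. Pcdhga3 had 1.09, 2.15 and 3.41 CPM and Pcdhga2 1.16, 0.641 and 1.28 CPM. Pcdhgb7 had 2.45, 1.97 and 1.75 CPM and Pcdhga11 1.21, 1.1 and 1.34 CPM. By the rule of every library, D4 alone of the PSC lines had Pcdhga8 (0.305, 0.105 and 1.12 CPM) and Pcdhga12 (0.721, 0.323 and 1.48 CPM) on. For Pcdhga8 this rests on D4 having 1 library. Single libraries reached 1.24 CPM in PSC4 Rosa, 1.41 in A3 and 1.34 in B4, above the D4 value.

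Of the C-type members, Pcdhgc3 was by far the most abundant clustered protocadherin. It held between 37.7 and 81% of the gamma TPM of a library, with line means of 60.8% in PSC4 Rosa, 65.1% in A3, 73.2% in B4, 59.9% in T6-LOH, 41.3% in T12-LOH and 78.6% in T69A. It had 182.6, 176.6 and 198.8 CPM in Rosa, 196.2, 222.2 and 204.3 in A3 and 338.4, 326.2 and 326 in B4. B4 stood apart above the others. In PSC5 Rosa, C5 and D4 it had 261.6, 207.9 and 278.6 CPM. Pcdhgc5 had 6.25, 5.14 and 4.28 CPM in PSC4 Rosa, 7.96, 6.6 and 4.39 in A3 and 2.83, 2.64 and 3.68 in B4, lowest in B4 without overlap, and 23.1, 7.69 and 9.61 CPM in PSC5 Rosa, C5 and D4. In TPM the PSC4 lines overlapped in Pcdhgc5, at 3.66, 1.73 and 1.37 in Rosa, 3.31, 2.33 and 1.44 in A3 and 1.64, 0.932 and 4.12 in B4. With the longest transcript alone, its log2 difference of B4 from A3 turned to 0.1452.

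Pcdhgc4 varied widely within lines. It had 10.6, 13.5 and 12.2 CPM in Rosa, 7.66, 2.71 and 10.3 in A3 and 0.792, 4.75 and 1.25 in B4, and 12.3, 13.6 and 29.3 CPM in PSC5 Rosa, C5 and D4. A3 and B4 overlapped. One of its transcripts, of 2272 bases and with 6.74% unique 31-base words, was given 0 counts in some libraries and up to 26.3 CPM, unscaled, in the D4 library. The part of that assignment in the spread was not tested.

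Alpha members were close to silent. The 13 alpha members other than Pcdhac2 together had between 0 and 7.22 estimated counts per library, and none passed 0.151 CPM. Pcdhac2, the last C-type member of the alpha cluster, had 1.73 CPM in PSC5 Rosa, 0.736 in C5 and 3.31 in D4. In PSC4 it had 0.26, 2.03 and 0.216 CPM in A3, and in Rosa it had 0.202 CPM in library 20 and 0 counts in the other libraries. It had 0 counts in every B4 and every organoid library, so among PSC4 lines only A3 library 21 passed 1 CPM. The 11 beta members on in no line stayed at or under 1.29 CPM in every library, and the 2 such gamma members, Pcdhgb5 and Pcdhga9, at or under 1.52 CPM.

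Across the PSC4 lines, edgeR's quasi-likelihood test with Benjamini-Hochberg adjustment over all 14093 genes tested, with the organoid partner in the model, called 26 of the 33 members that passed the filter on low counts (53.6% of all genes were called). Of the rest, Pcdhga9 (adjusted p = 0.0607) and Pcdhgc4 (adjusted p = 0.0939) came nearest in that edgeR test. The filter keeps genes with enough counts in 1 line, so the 33 are not all members. Pcdhb9 and Pcdhb15 reached its level in B4 alone and so had to differ. The line held a median of 87.1% of a tested member's variance, against 54.5% for all genes tested, and the partner 3.37% against 23.7%. By organoid partner, edgeR called 0 of 33 members (21.1% of all genes), 1 had an unadjusted p under 0.05, and DESeq2 called 0. Among PSC libraries whose line has more than 1, the nearest library by the tested members was of the same line for 8 of 9, and by all genes for 7 of 9; the exception by members was A3 library 18, nearest to Rosa library 17.

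In B4 against Rosa, edgeR called 25 of 33 members (50.2% of all genes), 17 higher (25.2%) and 8 lower (25%). The median size of the log2 change was 1.45 over the tested members and 0.34 over all genes. Of the 12 tested beta members 10 rose and 1, Pcdhb5, fell, and of the 21 gamma members 7 rose and 7 fell. The 10 include Pcdhb9 and Pcdhb15, which reached the filter in B4 alone and so had to differ. The counts and the median over members are therefore descriptions. The largest rises were in Pcdhb16 (log2 fold change 3.04 ± 0.18, SE, edgeR adjusted p = 3.013e-05), Pcdhb21 (2.35 ± 0.20, adjusted p = 8.898e-05) and Pcdhb20 (2.11 ± 0.16, adjusted p = 7.093e-05), leaving aside Pcdhb15 (2.71 ± 0.40), which was tested only because it is high in B4. In the gamma cluster Pcdhgb1 (1.78 ± 0.42, adjusted p = 0.00877) and Pcdhgb4 (1.70 ± 0.19, adjusted p = 0.00026) rose, and Pcdhgb6 fell by 1.73 ± 0.15 (adjusted p = 0.000107). Pcdhgc3 rose by 0.85 ± 0.07 on the log2 scale (edgeR adjusted p = 8.898e-05). Of the 25 calls, 18 held under every alternative run; Pcdhb9, Pcdhga11, Pcdhga12, Pcdhgb1, Pcdhgb7, Pcdhgc4 and Pcdhgc5 lost theirs under at least 1.

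A3 differed from Rosa in fewer members. edgeR called 3 of 33 (7.41% of all genes), 1 higher (3.35%) and 2 lower (4.06%). Pcdhga1 fell by 1.70 ± 0.21 on the log2 scale (adjusted p = 0.00517), Pcdhga2 fell by 0.87 ± 0.18 (adjusted p = 0.0307) and Pcdhgb2 rose by 1.17 ± 0.19 (adjusted p = 0.0156). All 3 are gamma members. The median size of change was 0.36 over members and 0.14 over all genes. The count dropped to 1 with each member's longest transcript alone, which left Pcdhga2, and to 1 without the partner in the model, which left Pcdhga1. It also dropped to 1 without Rosa library 17 or 20 or A3 library 21 or 24, with Pcdhga1 the one left each time.

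Between the clones themselves, edgeR called 26 of 33 members (49% of all genes), 18 higher in B4 (24.4% of all genes) and 8 lower (24.6%). This is the direct test of the difference between A3 and B4, which share their Rosa control. The 18 include Pcdhb9 and Pcdhb15, which were tested only because they are high in B4. Pcdhga1 (log2 difference 1.62 ± 0.21, edgeR adjusted p = 0.00054) and Pcdhga9 (-1.96 ± 0.60, adjusted p = 0.0278) were called here and not in B4 against Rosa, and Pcdhgb2 was lower in B4 (-0.93 ± 0.19, adjusted p = 0.00532).

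**Figure D4:**
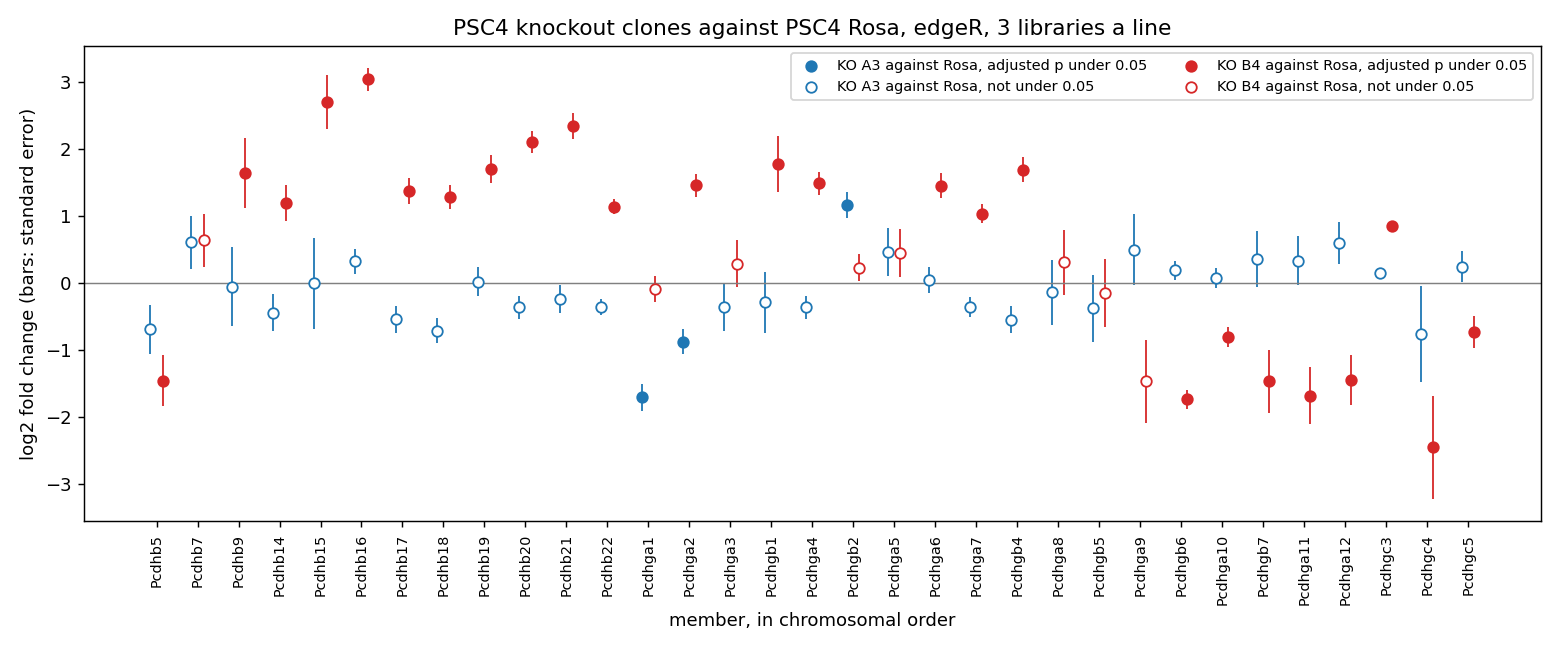
Log2 fold change of each of the 33 tested members (horizontal axis, in chromosomal order) in clones A3 and B4 against PSC4 Rosa, from edgeR with 3 libraries a line; bars are standard errors and filled points have an adjusted p under 0.05. Filled B4 points lie above 0 from Pcdhb9 to Pcdhb22 and from Pcdhga2 to Pcdhgb4, and below 0 from Pcdhgb6 to Pcdhga12; 3 A3 points are filled.

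The cluster sums do not rest on the division of reads among members, and they do not show the shift among the alternate gamma members. The beta sum was 46.4 ± 3.39 CPM in Rosa, 37.8 ± 7.24 in A3 and 126 ± 15.2 in B4 (SD, n = 3 each), and the gamma sum 293.7 ± 19.5, 312.5 ± 16.2 and 447.8 ± 6.11. Most of the gamma difference lay in Pcdhgc3, at 186 ± 11.5 CPM in Rosa and 330.2 ± 7.08 in B4 (SD, n = 3 each). B4 rose against Rosa in both, by 1.45 ± 0.14 (beta, edgeR adjusted p = 0.000212) and 0.63 ± 0.07 (gamma, edgeR adjusted p = 0.000242) on the log2 scale. In A3 the log2 change was -0.31 ± 0.14 (edgeR adjusted p = 0.227) and 0.09 ± 0.07 (edgeR adjusted p = 0.493). In PSC5 Rosa, C5 and D4 the beta sum was 64.3, 46.7 and 105.3 CPM and the gamma sum 378.1, 297.3 and 405.5 CPM.

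The comparison named by the series' design, Egfr knockout against wild type over the 12 PSC libraries, gave no called member. edgeR called 0 of 34 (0.0638% of all genes, 0.0213% higher and 0.0425% lower), 0 had an unadjusted p under 0.05, and DESeq2 called 0. Log2 changes ran from -0.98 ± 0.68 in Pcdhgc4 to 1.63 ± 0.87 in Pcdhb16 (lowest edgeR adjusted p over the members, 0.429). Of 8 knockout libraries, 7 were above their own control in Pcdhb16, Pcdhb7 and Pcdhgc3, and 1 in Pcdhb5. The knockout effect in PSC5 against that in PSC4 differed in 0 of 34 members by edgeR's interaction term (0% of all genes), with 0 at an unadjusted p under 0.05 and 0 by DESeq2. With knockout clones that differ from each other, as A3 and B4 do, the spread between clones enters this test.

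Organoids had fewer members on, and a different set in each line. T6-LOH had 4 on: Pcdhgb1, Pcdhgb6, Pcdhgb7 and Pcdhgc3. T12-LOH had 11: Pcdhga4, Pcdhgb2, Pcdhga5, Pcdhga7, Pcdhgb4, Pcdhgb6, Pcdhga10, Pcdhgb7, Pcdhga11, Pcdhgc3 and Pcdhgc4. T69A had 6: Pcdhb16, Pcdhb17, Pcdhgb7, Pcdhga12, Pcdhgc3 and Pcdhgc4. The rule asked for 6 libraries in T6-LOH, 3 in T12-LOH and 2 in T69A, so these sets and their overlaps are not counted on equal terms. In T6-LOH, 4 members passed 1 CPM in some libraries only: Pcdhga5, Pcdhga7, Pcdhga9 and Pcdhgc4. In T12-LOH 2 members did so and in T69A 0. T6-LOH shared 3 with T12-LOH (75% of its own set, 27.3% of the other) and 2 with T69A (50% and 33.3%), and T12-LOH and T69A shared 3 (27.3% and 50%). Over all genes at 1 CPM, any pair of organoid lines shared 94.2 to 97.2% of either line's genes. Only Pcdhgb7 and Pcdhgc3 were on in all 3, and Pcdhga5 was the only member on in an organoid line and in no PSC line. At 0.5 CPM T6-LOH had 7 on, and T12-LOH had 7 at 2 CPM and 6 at 1 TPM.

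T6-LOH was marked by Pcdhgb7, Pcdhgb6 and Pcdhgb1, which held 31.6% ± 2.46, 27.3% ± 2.08 and 10.2% ± 0.91 of its gamma A and B TPM (SD, n = 6). Over its 6 libraries Pcdhgb7 ran from 5.72 to 9.51 CPM (median 6.76), Pcdhgb6 from 5.09 to 7.78 (median 5.91) and Pcdhgb1 from 1.76 to 3.01 (median 2.21). In T12-LOH libraries 10, 11 and 12, Pcdhgb7 had 1.63, 1.39 and 1.57 CPM, Pcdhgb6 3.96, 3.17 and 2.76 CPM and Pcdhgb1 0.056, 0.0493 and 0 CPM. In T69A libraries 2 and 4, Pcdhgb7 had 1.81 and 1.18 CPM, Pcdhgb6 0.156 and 0 CPM, and Pcdhgb1 0 counts. T6-LOH was above both other lines in each gene, with no overlap. Against the limit of 3 counts over both T69A libraries, Pcdhgb1 was at least 34.1-fold lower in T69A than in T6-LOH. Pcdhga5 (0.725 to 1.49 CPM in T6-LOH) and Pcdhga9 (0.762 to 1.52 CPM) were likewise at 0 counts in T69A, at least 17.7-fold and 15.5-fold lower.

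T12-LOH was led by Pcdhgb2, Pcdhgb4 and Pcdhga10 (27.2% ± 2.89, 15.7% ± 1.05 and 13.3% ± 1.51 of its gamma A and B TPM, SD, n = 3). In libraries 10, 11 and 12, Pcdhgb2 had 11.9, 13.6 and 13.8 CPM, against 0 to 0.652 (median 0.253) in T6-LOH and 0 counts in T69A. Pcdhgb4 had 7.28, 7.64 and 8.04 CPM, against 0 to 0.173 (median 0.0837) in T6-LOH and 0 counts in T69A. Pcdhga10 had 6.33, 7.41 and 6.06 CPM, against 0 to 0.226 (median 0.143) in T6-LOH and 0.325 and 0.371 in T69A. For all 3, the T12-LOH libraries lay far above every other organoid library. Pcdhga11 had 5.62, 4.64 and 3.36 CPM in T12-LOH, 0.0456 to 0.352 in T6-LOH and 0 and 0.222 in T69A, and Pcdhga4 had 4.03, 3.72 and 4.27 CPM in T12-LOH, 0.227 to 0.974 in T6-LOH and 0 and 0.0871 in T69A. Pcdhga5 had 2.78, 1.18 and 1.87 CPM and Pcdhga7 2.07, 1.77 and 1.95 CPM in T12-LOH; Pcdhga5 overlapped T6-LOH, and Pcdhga7, at 0.703 to 1.52 CPM in T6-LOH, did not.

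T69A was set apart by Pcdhga12 and by beta members. Pcdhga12, the last alternate gamma member, held 66.5% ± 1.80 of the gamma A and B TPM (SD, n = 2), with 5.59 and 4.18 CPM, against 0.229 to 0.942 (median 0.693) in T6-LOH and 0.129 to 0.55 in T12-LOH. Pcdhb16 had 6.39 and 5.96 CPM in T69A, against 0 to 0.106 (median 0.0695) in T6-LOH and 0.0323 to 0.0868 in T12-LOH, and held 55.4% ± 1.79 of the beta TPM of T69A. Pcdhb17 had 2.16 and 2.18 CPM, against 0 to 0.0682 (median 0) in T6-LOH and 0.332 to 0.564 in T12-LOH. T69A did not overlap the other lines in any of the 3. The beta sum was 10.6 ± 1.10 CPM in T69A (SD, n = 2), 1.0 ± 0.325 in T6-LOH (n = 6) and 0.812 ± 0.124 in T12-LOH (n = 3). Fibroblast markers stood at 0.184% (library 2) and 0.0587% (library 4) of their PSC level in T69A, as the median over 11 markers, and at 0 to 0.0887% in the other organoid libraries. The part of that trace in the beta values was not tested. Pcdhb16 was higher in PSCs of B4 (8.76 to 14.3 CPM), the partner of T69A library 4, than in T69A itself. In PSC4 Rosa, the partner of T69A library 2, it was lower than in T69A (1.47 CPM in Rosa library 17, grown with T69A). Pcdhb22, the leading beta member of PSCs, had 0.45 and 0.257 CPM in T69A and 0.209 to 0.682 in T6-LOH.

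**Figure D5:**
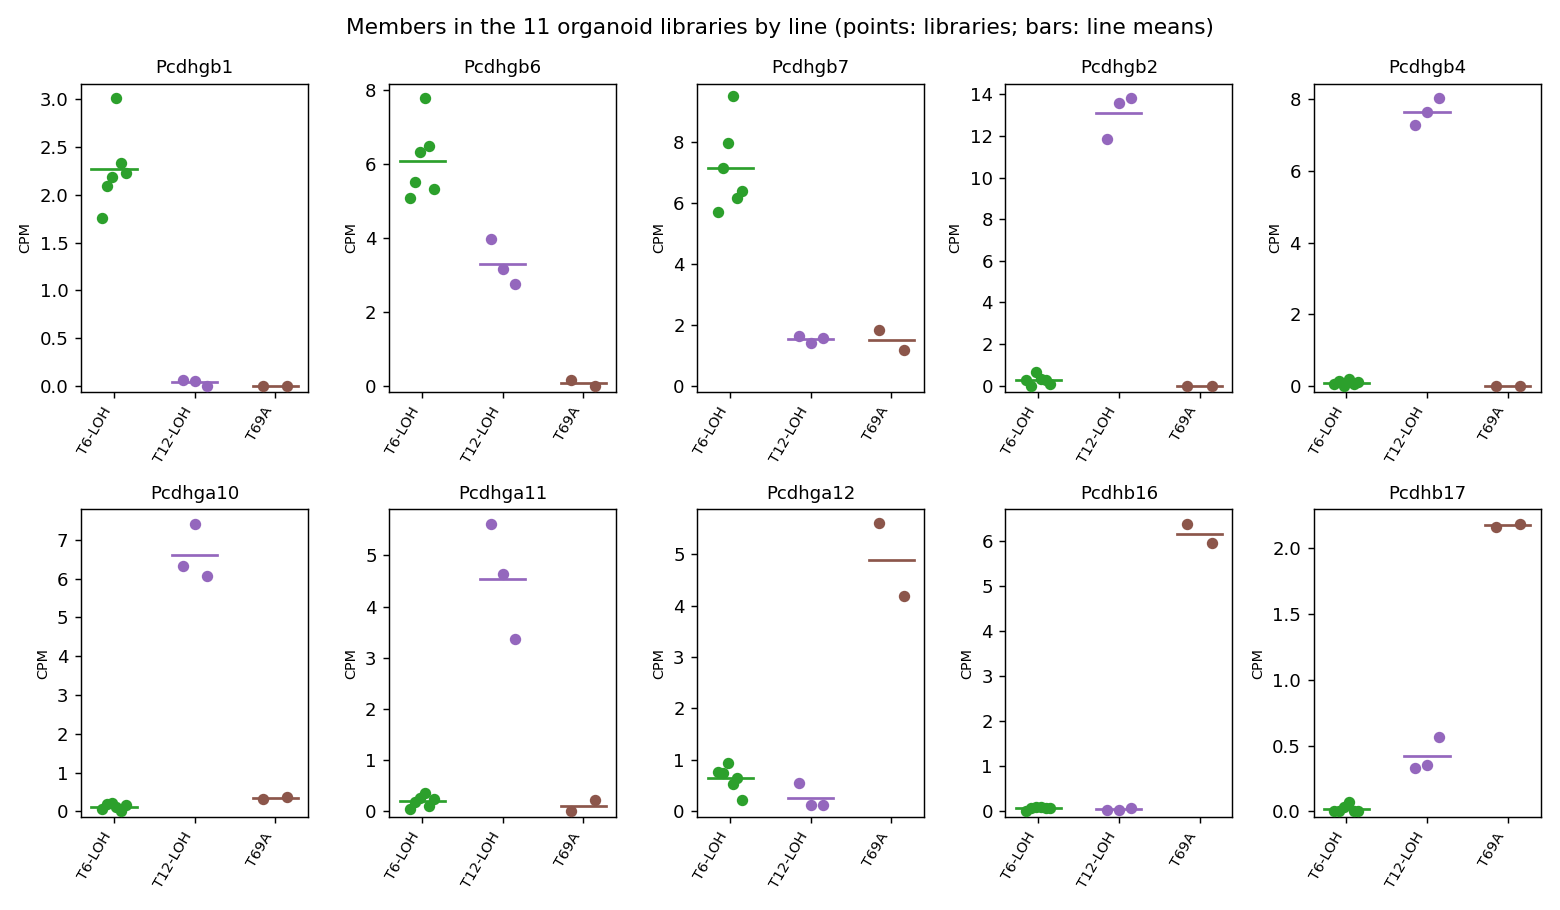
CPM of 10 members in the 11 organoid libraries (vertical axis, linear) by organoid line (horizontal axis); points are libraries (6, 3 and 2) and bars are line means. Pcdhgb1, Pcdhgb6 and Pcdhgb7 are highest in T6-LOH, Pcdhgb2, Pcdhgb4, Pcdhga10 and Pcdhga11 in T12-LOH, and Pcdhga12, Pcdhb16 and Pcdhb17 in T69A.

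In a single fit over the 11 organoid libraries with the genotype of the PSC partner in the model, edgeR called 23 of 24 tested members by line (76.6% of all genes), all but Pcdhgc4 (adjusted p = 0.614). The 24 are not all members: 12 of them reached the level of the filter in 1 line only, among them Pcdhb16, Pcdhgb1, Pcdhgb2 and Pcdhgb4, and so had to differ. The counts and medians over the tested organoid members are therefore descriptions. T12-LOH against T6-LOH gave 19 of 24 (62.9% of all genes), 11 higher (31.6%) and 8 lower (31.3%), with a median size of change of 2.40 on the log2 scale against 0.41 over all genes. Pcdhga10 differed by 5.73 ± 0.37 (edgeR adjusted p = 3.015e-08). Pcdhgb4 (6.41 ± 0.35) and Pcdhgb2 (5.64 ± 0.53) reached the filter in T12-LOH only, so they are given without a p-value. T69A against T6-LOH gave 18 of 24 (53.7% of all genes), 7 higher (26.6%) and 11 lower (27.1%). Its median size of change was 4.21, or 2.56 with the 8 members at 0 counts in T69A set to their limit, against 0.38 over all genes. Pcdhga12 differed by 2.80 ± 0.40 (edgeR adjusted p = 7.275e-05). Pcdhb16 (6.44 ± 0.40) reached the filter in T69A only and is likewise given without a p-value. Both comparisons share the T6-LOH libraries.

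The nearest library was of the same line for 11 of 11, by members and by all genes alike. The gamma sum was 61.2 ± 2.59 CPM in T6-LOH (SD, n = 6), 88.2 ± 4.19 in T12-LOH (n = 3) and 66 ± 10.3 in T69A (n = 2). It rose by 0.51 ± 0.07 on the log2 scale in T12-LOH against T6-LOH (edgeR adjusted p = 1.927e-05), and the difference of T69A from T6-LOH was 0.09 ± 0.08 (adjusted p = 0.388), turning to -0.09 without T69A library 2. The beta sum rose by 3.36 ± 0.25 in T69A (edgeR adjusted p = 2.427e-07). Pcdhgc3 had 34.3 to 43.3 CPM in T6-LOH (median 35.6), 35.6, 42.6 and 32.8 in T12-LOH and 59.5 and 49.6 in T69A, where it rose by 0.54 ± 0.12 (edgeR adjusted p = 0.00203). Without T69A library 2 that difference of Pcdhgc3 was 0.36 (edgeR adjusted p = 0.0684) and no longer passed. Pcdhgc5 had 0.0351 to 0.177 CPM in T6-LOH (median 0.0582), 0.863, 0.52 and 0.673 in T12-LOH and 0.536 and 0.283 in T69A. Pcdhgc4 had 0.0631 to 4.2 CPM in T6-LOH (median 0.266), 1.45, 1.91 and 2.91 in T12-LOH and 5.15 and 2.62 in T69A, with the T6-LOH range overlapping both other lines.

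The genotype of the PSC partner left no called difference in organoids. edgeR called 0 of 18 members (10.3% of all genes, 4.24% higher and 6.05% lower), 0 had an unadjusted p under 0.05, and DESeq2 called 0. The lowest edgeR adjusted p was 0.347, in Pcdhga12 (log2 change -0.49 ± 0.33). Pcdhga5 was above its own control in 1 of 7 libraries grown with knockout PSCs and Pcdhga10 in 5 of 7.

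Between the sorted fractions of the 4 co-cultures with Rosa PSCs, edgeR called 18 of 30 members (56% of all genes), all 18 higher in PSCs (28.8% of all genes were higher and 27.3% lower). The beta sum differed by 4.82 ± 0.81 (edgeR adjusted p = 0.0045) and the gamma sum by 2.17 ± 0.16 (edgeR adjusted p = 0.000239) on the log2 scale. Pcdhb22 differed by 5.75 ± 0.55 (edgeR adjusted p = 0.000567) and Pcdhgc3 by 2.34 ± 0.22 (edgeR adjusted p = 0.000532). Pcdhgb7, higher in T6-LOH organoids than in any PSC library, did not pass the test (edgeR adjusted p = 0.088). The count dropped to 9 without Rosa library 20 or without T6-LOH library 6. Epithelial markers in PSC libraries stood at 0.0556 to 0.658% of their organoid level, highest in the 3 libraries grown with T69A (0.473 to 0.658%); their part in the result was not tested.

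Other genes of the pathway were taken from fixed lists. Of 24 genes for promoter choice and chromatin, all were tested in PSC4 and 12 differed between the 3 lines by edgeR (53.6% of all genes). In B4 against Rosa 6 rose and 6 fell, with a median log2 change of 0.02. Setdb1, a histone methyltransferase that silences chromatin, had 118.8 ± 20.6 CPM in Rosa, 90 ± 23.1 in A3 and 60.4 ± 9.18 in B4 (SD, n = 3); B4 lay below Rosa in every library, and the log2 change was -0.95 ± 0.08 (edgeR adjusted p = 0.000106). Dnmt3b, a DNA methyltransferase that marks protocadherin promoters, had 2.08 ± 0.65, 1.71 ± 0.238 and 3.75 ± 0.85 CPM and rose by 0.89 ± 0.25 in B4 (edgeR adjusted p = 0.0206). Dnmt3a, of the same enzyme family, rose by 0.88 ± 0.11 (edgeR adjusted p = 0.000614). Ctcf, the factor that binds promoters and enhancers of the clusters, had 122.9 ± 13.3, 134.5 ± 17.3 and 108.6 ± 7.99 CPM, and its log2 change in B4 against Rosa was -0.16 ± 0.06 (edgeR adjusted p = 0.0546). Rad21, a cohesin subunit, fell by 0.40 ± 0.06 (adjusted p = 0.000806), Mau2, a partner of the cohesin loader, fell by 0.47 ± 0.07 (adjusted p = 0.000883), and Smchd1, a chromatin silencer, rose by 0.28 ± 0.06 (adjusted p = 0.0062), all by edgeR. Lrif1, a partner of Smchd1, fell in A3 (-0.48 ± 0.06, edgeR adjusted p = 0.00707) and in B4 (-0.42 ± 0.06, adjusted p = 0.000974).

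In organoids 23 of those 24 differed between lines. Dnmt3b had 11.3 ± 0.905 CPM in T6-LOH (SD, n = 6), 1.96 ± 0.773 in T12-LOH (n = 3) and 3.66 ± 0.215 in T69A (n = 2), and was lower in T12-LOH by 2.54 ± 0.19 (edgeR adjusted p = 1.016e-07). Rad21 had 619.5 ± 32.3, 302.8 ± 21.8 and 343.3 ± 35.3 CPM, lower in T12-LOH by 1.05 ± 0.05 (edgeR adjusted p = 2.345e-09). Both also fell in T69A against T6-LOH, Dnmt3b by 1.60 ± 0.21 (edgeR adjusted p = 3.15e-05) and Rad21 by 0.84 ± 0.06 (adjusted p = 1.589e-07). These counts stand beside 76.6% of all genes called between organoid lines.

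Of 21 genes for membrane partners, cleavage and signalling of protocadherins, 15 differed between PSC4 lines (53.6% of all genes); in B4 against Rosa 7 rose and 6 fell. Abi1, a subunit of the WAVE actin regulator that binds protocadherin tails, rose in B4 by 0.61 ± 0.12 (edgeR adjusted p = 0.00411) and Cyfip1, a subunit of the same complex, fell by 0.44 ± 0.07 (adjusted p = 0.00101). Aph1a, a subunit of the gamma-secretase that cleaves protocadherins, fell by 0.44 ± 0.06 (edgeR adjusted p = 0.000747), and Axin1, a scaffold of Wnt signalling, rose by 0.31 ± 0.05 (adjusted p = 0.00164). The non-clustered protocadherins are single genes outside these clusters. Of 12 such genes 7 were tested and all 7 differed between PSC4 lines (53.6% of all genes), and in B4 against Rosa 6 fell and 1 rose, with a median log2 change of -2.81. Pcdh19 had 79.4 ± 17.2 CPM in Rosa, 67.4 ± 13.2 in A3 and 7.82 ± 2.23 in B4 (SD, n = 3), a fall of 3.33 ± 0.08 on the log2 scale (edgeR adjusted p = 1.542e-06). Pcdh9 had 116.5 ± 3.16, 108.2 ± 15 and 16.6 ± 3.06 CPM, and fell by 2.81 ± 0.13 in B4 (edgeR adjusted p = 1.602e-05). Pcdh20 had 4.87 ± 0.617, 1.80 ± 0.436 and 0.0896 ± 0.0172 CPM and Pcdh17 2.48 ± 0.971, 0.421 ± 0.248 and 0.0127 ± 0.022 CPM, in order from Rosa over A3 to B4 in both. The 3 lines did not overlap in either gene.

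Among 12 classical cadherins and catenins, 10 were tested and 7 differed between PSC4 lines (53.6% of all genes), 3 rising and 4 falling in B4 against Rosa. Cdh6, a type II cadherin, had 19.3 ± 10.1 CPM in Rosa, 6.03 ± 3.17 in A3 and 0.28 ± 0.144 in B4, and fell in B4 by 6.07 ± 0.24 (edgeR adjusted p = 7.256e-06). Cdh13, a cadherin anchored to the membrane without a tail, fell by 3.10 ± 0.20 (edgeR adjusted p = 5.184e-05). Ctnnb1, which encodes beta-catenin, rose by 0.73 ± 0.06 (edgeR adjusted p = 7.003e-05) and Ctnnd1, p120-catenin, by 0.33 ± 0.06 (adjusted p = 0.00203). The shares of called genes in these lists stand beside 50.2% of all genes called in B4 against Rosa.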

How the data were processed

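The members and the gene lists were chosen with earlier results of these data known. Per the submitters' processing notes the authors ran Salmon 1.9.0 on the mouse build GRCm39 (mm39); the sources used here do not name the kit, strandedness or annotation release. The deposited tables hold an estimated count and a TPM value per transcript, per the file headers, for 117135 transcripts. Of these, 115973 (99.0%) matched GENCODE M21 by identifier; its build differs, so it gave only names, order and lengths. Unmatched transcripts held 0.364 to 0.443% of counts. Counts and TPM were summed over 35523 genes and counts rounded; 87 transcripts belong to members.

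Tests used edgeR 4.0.16 under R 4.3.3 (TMM, filterByExpr, glmQLFit, glmQLFTest), with Benjamini-Hochberg adjustment over all genes tested and a threshold of 0.05; every adjusted p in the text comes from it. An SE is the log2 fold change over the square root of F. PSC4 fits had line and organoid partner as terms, the fits over 12 PSC libraries co-culture and genotype, the organoid fits line or co-culture with the genotype of the PSC partner, and the fraction fit co-culture. The scripts were tested on simulated data. Variance shares use log2(CPM + 0.5). Alternatives were DESeq2 1.42.0, other filters, the longest transcript of each member, no partner term, other thresholds for members on, and leaving out each library. Values in every library are given for members on in at least 1 line, up to 30 by mean TPM; from each other list up to 4 genes with the smallest p over the PSC4 lines are named, besides Ctcf, Smchd1, Dnmt3b and Rad21. Pcdhga9, Pcdhgb5 and Pcdhb9 were named after their values were seen.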

Additional observations from a re-analysis of the deposited data

Results flagged for a closer look

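Dixon's gap over range was taken in 29 groups of 6 T6-LOH organoid libraries that could be tested. In 4 of them 1 library stood apart from the other 5. Chance gives about 1 in 20 for normally distributed values, a rate that does not hold for counts near 0. Pcdhb16 had 0 CPM in library 6, below the other 5, and Pcdhga4 had 0.227 CPM in library 15, below the other 5. For Pcdhga4 this turns with the measure: in TPM library 15 was the highest, at 0.319 against 0.203 to 0.305 in the other 5. Pcdhb19 had 0.136 CPM in library 14 and Pcdhga8 had 0.114 CPM in library 15, each above the other 5, which for Pcdhga8 all had 0 counts. All of these flagged values rest on a few counts. That of Pcdhga4 in library 15 was 6.56 estimated counts, against 20.1 to 28.3 in the other 5.

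Pcdhgc4 moved in opposite directions in the knockout clones of PSC4 and PSC5. In PSC4 every knockout library lay below its own Rosa control, with log2 differences from -3.1 to -0.229 (mean -1.69). In PSC5 both lay above it, by 0.14 and 1.22 (mean 0.679). The PSC5 mean minus the PSC4 mean was 2.37, and the interaction term in edgeR did not pass the threshold (adjusted p = 0.985).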

How the results depend on the processing

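Over alternatives other than leaving out a library, called members kept their call in 449 cases, lost it in 22 and changed sign in 1: Pcdhgc5 in B4 against A3 was 0.1452 with the longest transcript alone. When a library was left out, they kept it in 926 cases and lost it in 111. Members called by organoid partner came to 1 with no filter on low counts. For A3 against Rosa the count was 1 with the longest transcript alone, 1 with no partner term, and 1 to 3 when a library was left out. For PSCs against organoids it was 9 to 21 when a library was left out. The gamma sum of T69A against T6-LOH ran from -0.0857 (without library 2) to 0.2538 when a library was left out. The sums in organoids by PSC genotype, none of them called, ran from -0.0864 to 0.0267 (gamma, above 0 without library 2 or, at 0.0164, library 4) and from -0.3367 to 0.0271 (beta, above 0 without library 14). Members on at 0.5 CPM were 7 in T6-LOH, at 2 CPM 13 in A3 and 7 in T12-LOH, and at 1 TPM 11 in A3, 16 in PSC5 Rosa, 13 in C5 and 6 in T12-LOH. Over all genes, knockout against wild type in PSCs gave 9 calls in edgeR, 602 in DESeq2, 23 with no filter and 0 to 51 when a library was left out. The interaction gave 0 in edgeR and 92 in DESeq2. With no partner term, calls went from 7550 to 4691 between the PSC4 lines, from 1044 to 111 in A3 against Rosa, from 7072 to 4655 in B4 against Rosa and from 6903 to 4517 in B4 against A3. The cause of these shifts was not tested. The interaction without the PSC5 Rosa library could not be fitted, since no PSC5 control is left. Libraries were matched by terms of the fits and not by library number, which no groups share. The PSC4 fits held the organoid partner, and the fits by knockout genotype and by fraction held the co-culture. The fit by organoid line held the genotype of the PSC partner and no co-culture. Depth limits members near 0, and division of shared exons limits alpha and gamma values.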
